A study of Rattus norvegicus with 6 samples.

Results

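The neuronal machinery that stores, docks and releases synaptic vesicles was followed in the substantia nigra pars compacta of rats given rotenone or its solvent. The members are 9 genes: the synapsins Syn1 and Syn2, the synaptotagmins Syt1 and Syt4, the SNARE genes Snap25, Stx1a, Vamp1 and Vamp2, and synaptophysin (Syp). A probe was taken as a member when its accession, without version, was a rat RefSeq transcript of one of these genes. This found 9 of the 33849 probes on the array, for 8 of the 9 genes. Syn1 has 2 probes, and no probe carried a Syt1 accession, so Syt1 is not described further.

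The animals were male Sprague Dawley rats, 5 months old. The rotenone group (3 rats, numbered 16, 13 and 9) received 0.5 mg/kg rotenone per day for 28 days from an osmotic pump under the skin, placed under ketamine and xylazine. Rotenone, a pesticide made by plants, blocks complex I of the mitochondrial respiratory chain. The solvent group (3 rats, numbered 11, 7 and 1) received dimethylsulfoxide and polyethylene glycol with a Pluronic surfactant in the same way, a vehicle that the rotenone rats received too. The region was cut out by laser capture as a tissue area, so its glia and vessels are in the sample. RNA of each rat was amplified and read on 1 one-colour array, and the question was what a lasting low dose of this pesticide does to expression there.

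Release of transmitter starts when a vesicle SNARE, the product of Vamp1 or Vamp2, winds together with the plasma membrane SNAREs made from Stx1a and Snap25 and pulls the membranes into fusion. Calcium sensors of the synaptotagmin family trigger this step, and synapsins hold a reserve of vesicles near the release site. Dopamine neurons of the pars compacta send their axons to the striatum, but the messenger RNAs of these proteins are made in cell bodies within the sampled region, and the same neurons also release dopamine from their dendrites.

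Promoter windows of the paralogous pairs Syn1 and Syn2, and Vamp1 and Vamp2, are shown so that close relatives can be set side by side. They are not tied to the genes' array values, which come from different probes. The windows are the 250 bases before the gene start in RefSeq (GRCr8), 5′ to 3′ on the gene's strand. Capitals mark the cAMP response element TGACGTCA, a palindrome that the factor CREB binds, and the GC box GGGCGG or its reverse complement CCGCCC, which Sp1 binds.
Syn1, chrX:3725495-3725744, + strand: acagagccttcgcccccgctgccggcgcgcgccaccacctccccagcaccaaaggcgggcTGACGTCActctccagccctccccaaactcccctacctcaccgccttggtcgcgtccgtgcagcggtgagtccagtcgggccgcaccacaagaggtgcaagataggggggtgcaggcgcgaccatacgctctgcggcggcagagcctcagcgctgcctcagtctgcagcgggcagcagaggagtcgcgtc
Syn2, chr4:149858669-149858918, + strand: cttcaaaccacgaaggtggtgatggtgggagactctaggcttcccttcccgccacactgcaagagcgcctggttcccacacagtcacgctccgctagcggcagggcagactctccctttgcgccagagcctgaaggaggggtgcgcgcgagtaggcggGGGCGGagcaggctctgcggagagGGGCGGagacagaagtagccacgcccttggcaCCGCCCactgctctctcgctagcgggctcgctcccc
Vamp1, chr4:159698644-159698893, + strand: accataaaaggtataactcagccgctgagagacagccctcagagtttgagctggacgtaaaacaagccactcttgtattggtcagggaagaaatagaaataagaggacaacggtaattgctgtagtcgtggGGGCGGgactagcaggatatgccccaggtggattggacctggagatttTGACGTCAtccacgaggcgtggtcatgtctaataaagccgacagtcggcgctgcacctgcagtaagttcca
Vamp2, chr10:54292539-54292788, + strand: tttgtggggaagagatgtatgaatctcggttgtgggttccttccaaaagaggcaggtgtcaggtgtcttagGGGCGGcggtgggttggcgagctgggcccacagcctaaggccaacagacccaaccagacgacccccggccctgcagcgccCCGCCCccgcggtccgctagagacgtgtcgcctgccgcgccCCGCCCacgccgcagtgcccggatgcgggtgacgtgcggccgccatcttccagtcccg
The windows of Syn1 and Vamp1 hold the cAMP response element, 190 and 71 bases before the start, and those of Syn2 and Vamp2 do not. Of the 8 members with a window, 2 hold the element, against 1.59% of all 33469 windows of this length. A GC box is in 6 of the 8, against 30.5% of all windows. These matches describe the letters alone.

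Values are log2 intensities after background correction with an offset of 50 and quantile normalization, so that a spot with no signal lies near 6. An array was counted as above background for a probe where the scanner marked the spot neither as near background nor as masked. The share of probes above background ran from 44.2% to 51.5% over the arrays. Probes above background on at least 3 of the 6 arrays, 16708 in all, were tested by limma's moderated test, two-sided, with Benjamini-Hochberg adjustment over all of them. No probe passed an adjusted p of 0.05, 0% of those tested. The smallest adjusted p was 0.895, and 825 probes had an unadjusted p below 0.05. The array of rotenone rat 16 stood apart. Its mean correlation with the other arrays was 0.931, against 0.956 to 0.964 for the others, and its spots were dimmest, with a median net intensity of 11.7 against 13.9 to 16.6 elsewhere. The dopamine neuron markers Th, Ddc and Slc6a3 (probe GE1176496) were above background on all 6 arrays.

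None of the member probes passed the test between rotenone and solvent. Of the 9, 6 probes of 6 genes could be tested (Syn1, Syn2, Syt4, Stx1a, Vamp2 and Syp), and 5 of these were above background on all 6 arrays. The 6 differences lay between -0.40 for Syn2 and 0.08 for Stx1a. The Syn1 probe was above background in 1 rotenone and 3 solvent rats and so passed the filter through the solvent group. Of the 5 probes above background on all 6 arrays, 4 were lower and 1 was higher in mean with rotenone, with a median of -0.10. Among all 12468 probes above background on all 6 arrays, 45.6% were lower and the median was 0.02. The probes of Snap25 and Vamp1 and the probe GE20537 of Syn1 were above background on no array or on 1. They were not tested.

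**Figure D1:**
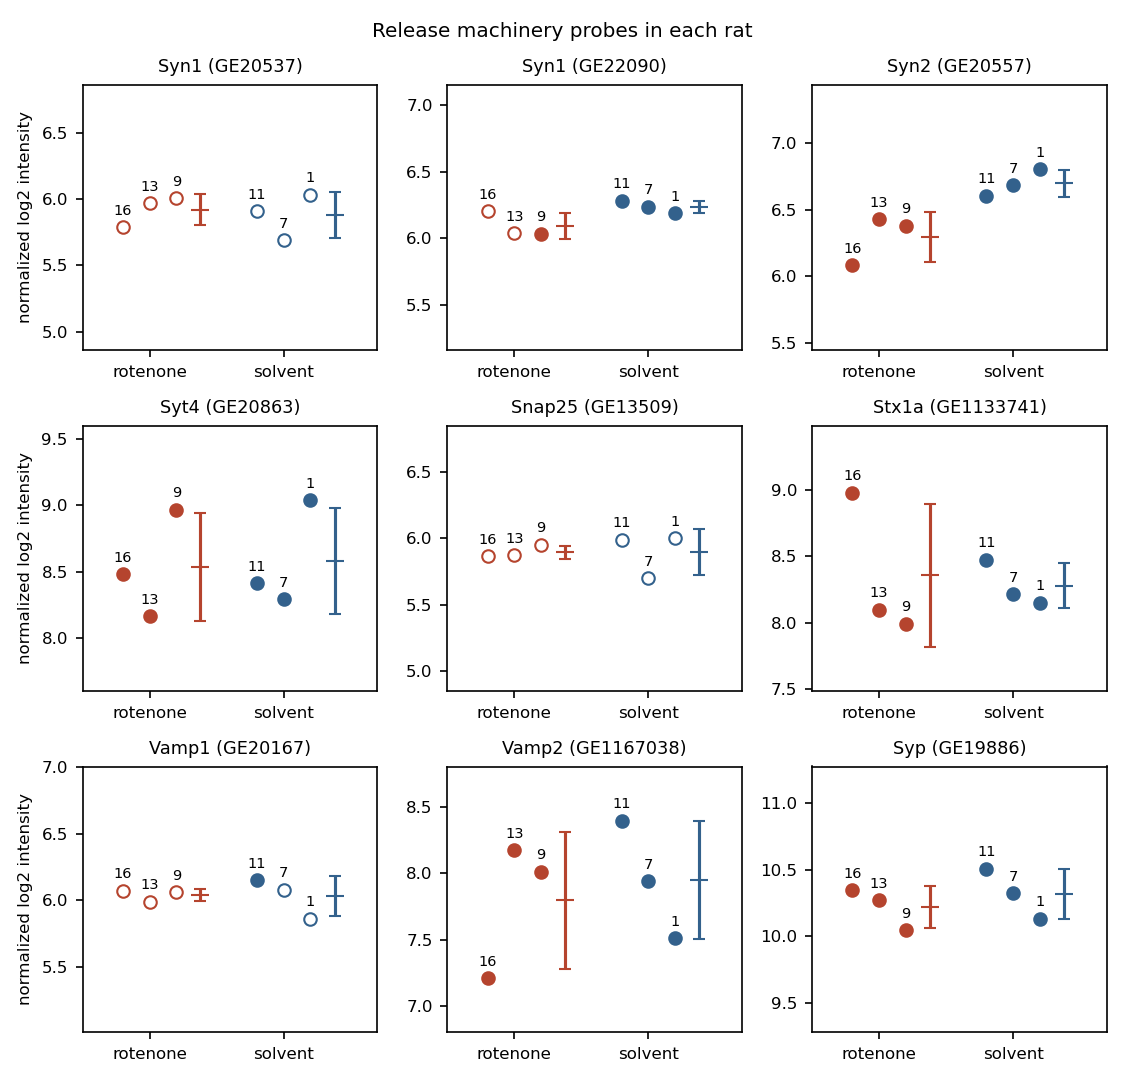
Normalized log2 intensity (vertical axis, 2 log2 units in each panel) of the 9 member probes in each rat, rotenone left of solvent. Points are rats with their numbers, filled where the spot was above background, and bars give mean and SD (n = 3); among the 6 tested probes the groups are separate for Syn2 alone.

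Synapsins are phosphoproteins on the outer face of the vesicle that tie vesicles to each other and to actin. For Syn2 (probe GE20557) the normalized log2 intensity was 6.08, 6.43 and 6.38 in rotenone rats 16, 13 and 9, against 6.61, 6.69 and 6.80 in solvent rats 11, 7 and 1. All 3 rotenone rats lay below all 3 solvent rats, and rotenone rat 16 was the lowest. Over all tested probes, 4.89% had rotenone values wholly below the solvent values, and 1 of the 6 tested members is of this kind. The opposite separation held for 5.08% of tested probes and for none of the 6. The Syn2 means were 6.30 ± 0.19 (SD, n = 3) with rotenone and 6.70 ± 0.10 (SD, n = 3) with solvent. The difference was -0.40 ± 0.17 (SE), with a 95% interval from -0.77 to -0.03 and, in limma, an unadjusted p of 0.0378 and an adjusted p of 0.895. Of the 6 tested members only Syn2 had an unadjusted p below 0.05, as did 4.94% of all tested probes, 2.95% with rotenone lower and 1.99% with rotenone higher.

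The Syn2 spot was dim, which bears on the size of this difference. Before normalization its net intensity, spot minus background, was 10.2, 32.2 and 26.3 in rotenone rats 16, 13 and 9, against 43.4, 52.2 and 62.8 in solvent rats 11, 7 and 1. The offset of 50 is as large as these signals and draws their log2 difference towards 0. With an offset of 16 the difference was -0.65, with plain subtraction it was -1.15, and in the deposited value table it was -0.74, with adjusted p values of 0.599 or more under every processing tried. Without rotenone rat 16 and with the offset of 50 it was -0.30, with an unadjusted p of 0.0939 in limma. The other processings were not run without that rat, whose net intensity of 10.2 was the lowest.

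Syn1, the other synapsin, was close to background at both probes. The probe GE22090 had 6.20, 6.04 and 6.03 in rotenone rats 16, 13 and 9, against 6.28, 6.24 and 6.19 in solvent rats 11, 7 and 1. It was above background in 1 rotenone rat and in 3 solvent rats, and the groups overlapped, since rotenone rat 16 lay above solvent rat 1. The difference was -0.14 ± 0.15 (SE; 95% interval -0.49 to 0.20, adjusted p 0.904 in limma). It was -0.70 with plain subtraction, again from net intensities of 9.43 to 13.6 with rotenone and 19.9 to 22.6 with solvent. The probe GE20537 of the same gene was above background on none of the 6 arrays, with values from 5.79 to 6.01 with rotenone and from 5.69 to 6.03 with solvent.

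Syt4 encodes a synaptotagmin found on peptide-containing vesicles, whose first C2 domain lacks a residue used for calcium binding in Syt1. Its probe GE20863 had 8.48, 8.16 and 8.96 in rotenone rats 16, 13 and 9, against 8.41, 8.29 and 9.03 in solvent rats 11, 7 and 1. Each group held 1 high rat, rotenone rat 9 and solvent rat 1, and the groups overlapped over most of their range. The means were 8.53 ± 0.40 with rotenone and 8.58 ± 0.40 with solvent (SD, n = 3 each). The difference was -0.05, with a 95% interval from -0.61 to 0.52, and it was 0.14 without rotenone rat 13 and 0.18 without solvent rat 1.

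Stx1a makes syntaxin 1A, a plasma membrane SNARE. Its probe GE1133741 had 8.98, 8.10 and 7.99 in rotenone rats 16, 13 and 9, against 8.47, 8.21 and 8.15 in solvent rats 11, 7 and 1. Rotenone rat 16 was the highest of the 6 rats, and the other 2 rotenone rats were the lowest. The means were 8.36 ± 0.54 with rotenone and 8.28 ± 0.17 with solvent (SD, n = 3 each), a difference of 0.08 with a 95% interval from -0.49 to 0.64. Without rotenone rat 16 the difference was -0.23 (unadjusted p 0.214 in limma).

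Vamp2, the main vesicle SNARE of brain synapses, had the reverse order in rotenone rat 16. The probe GE1167038 had 7.21, 8.17 and 8.01 in rotenone rats 16, 13 and 9, against 8.40, 7.94 and 7.51 in solvent rats 11, 7 and 1. Rotenone rat 16 was the lowest of all, and rotenone rats 13 and 9 lay among the solvent rats. The means were 7.80 ± 0.51 with rotenone and 7.95 ± 0.44 with solvent (SD, n = 3 each), a difference of -0.15 with a 95% interval from -0.79 to 0.49. It was 0.14 without rotenone rat 16, 0.07 without solvent rat 11 and -0.37 without solvent rat 1.

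**Figure D2:**
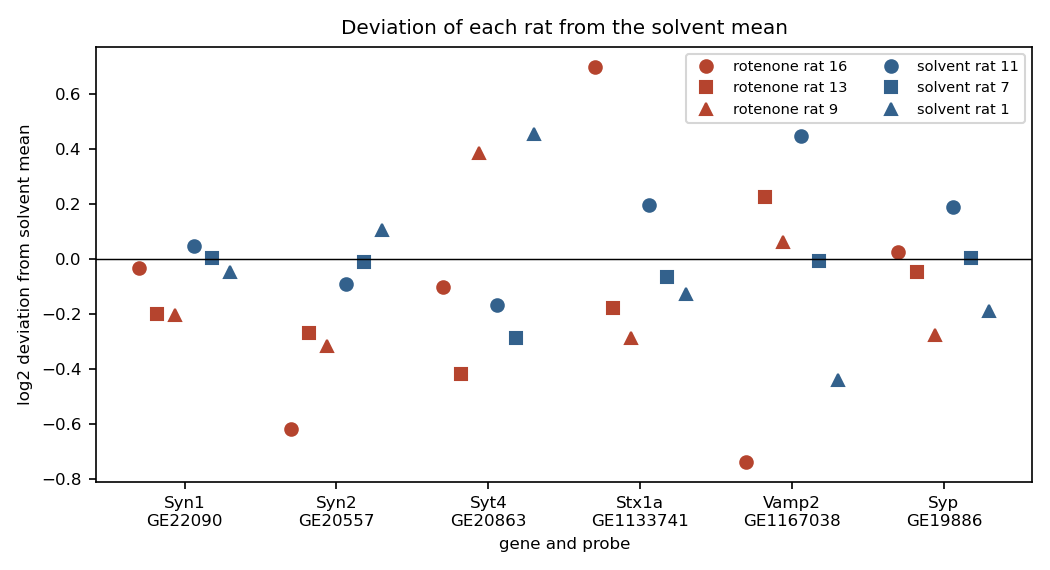
Deviation of each rat from the mean of the 3 solvent rats (vertical axis, log2) for the 6 tested member probes. Rotenone rat 16 lies at 0.70 for Stx1a and at -0.74 for Vamp2, and the 3 rotenone rats lie below the solvent rats together for Syn2 alone.

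The remaining SNARE genes gave no measurable level. Snap25, which supplies a plasma membrane SNARE with a pair of coiled helices, was above background on none of the 6 arrays at its probe GE13509. Its net intensity was 2, 2.79 and 5.93 in rotenone rats 16, 13 and 9, against 7.86, -3.90 and 8.71 in solvent rats 11, 7 and 1. Vamp1, a vesicle SNARE close to Vamp2, was above background in no rotenone rat and in solvent rat 11 alone, with 6.07, 5.99 and 6.06 in rotenone rats 16, 13 and 9, against 6.15, 6.08 and 5.86 in solvent rats 11, 7 and 1. These probes were not well above background, which does not give the genes' own levels. Among 20 genes of the lists described here that have several probes, 8 had 1 probe above background on all 6 arrays and another on 2 or fewer. The dopamine transporter Slc6a3 is one: GE1176496 was above background on 6 arrays and GE19906 on 0. Probe sequences were not used here.

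Synaptophysin, a membrane protein carried by nearly all small synaptic vesicles, was above background on all 6 arrays. Syp (probe GE19886) had 10.35, 10.27 and 10.05 in rotenone rats 16, 13 and 9, against 10.51, 10.32 and 10.13 in solvent rats 11, 7 and 1. The groups overlapped, and the whole range over the 6 rats was 0.46. The means were 10.22 ± 0.16 with rotenone and 10.32 ± 0.19 with solvent (SD, n = 3 each). The difference was -0.10 ± 0.17 (SE), with a 95% interval from -0.48 to 0.29 and an adjusted p of 0.936 in limma.

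The rats did not deviate in the same way across members. Over the 6 rats the range was 1.18 for Vamp2, 0.99 for Stx1a, 0.87 for Syt4, 0.72 for Syn2, 0.46 for Syp and 0.25 for Syn1 probe GE22090. The median deviation of the tested members from the solvent mean was -0.07, -0.19 and -0.24 in rotenone rats 16, 13 and 9, against 0.12, -0.01 and -0.09 in solvent rats 11, 7 and 1. It includes Syn1 probe GE22090, which passed the filter through the solvent group.

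Related genes of the vesicle cycle were read from 3 lists with 99 genes, of which 59 had a named probe and 29 genes, with 32 probes, were tested. None passed the test. Of the 32 probes, 15 were higher and 17 lower in mean with rotenone, with a median of -0.05. The groups did not overlap for 4 of them (12.5%), against 9.97% of all tested probes.

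SNARE assembly and release genes had 9 tested of 26 with a named probe, 4 higher and 5 lower, with a median of -0.10, or -0.0070 over the 6 probes above background on all 6 arrays. Cadps, which primes dense-core vesicles, had 10.61, 10.21 and 10.44 in rotenone rats 16, 13 and 9, against 10.15, 10.16 and 10.05 in solvent rats 11, 7 and 1. All rotenone rats lay above the solvent rats, with a difference of 0.30 (95% interval -0.07 to 0.67, unadjusted p 0.104 in limma). Rab3c, a small GTPase on vesicles, was also without overlap, at 0.28 (interval -0.13 to 0.69), and at 0.11 without rotenone rat 16. Nsf, the ATPase that takes used SNARE complexes apart, differed by -0.38 (interval -0.89 to 0.12), by -0.17 without rotenone rat 16 and by -1.14 with plain subtraction. Complexin 2 (Cplx2), which binds the assembled SNARE bundle, differed by -0.48 (interval -1.17 to 0.20). This rested on rotenone rat 13, at 8.60 against 9.75 and 9.77 in the other rotenone rats, and was -0.10 without it.

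Vesicle membrane proteins had 8 tested genes, 5 higher and 3 lower, with a median of 0.05 (0.01 over the 7 probes above background on all 6 arrays), and 3 higher and 5 lower with a median of -0.16 without rotenone rat 16. Syt17, a relative of the synaptotagmins, differed by -0.50 (95% interval -0.97 to -0.03, unadjusted p 0.0391 and adjusted p 0.895 in limma). It was at 6.54 and 6.50 in rotenone rats 16 and 13 and at 7.22 in rotenone rat 9, against 7.36, 7.18 and 7.23 in solvent rats 11, 7 and 1, so the groups overlapped. With plain subtraction it differed by -0.98. Sv2b, a vesicle glycoprotein, was higher in every rotenone rat than in every solvent rat, at a difference of 0.22 (interval -0.13 to 0.57). Both Syt11 probes were above background on no array or on 1 and were not tested.

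For the retrieval of vesicles from the membrane 12 genes were tested with 15 probes, 6 higher and 9 lower, with a median of -0.08, or -0.17 over the 12 probes above background on all 6 arrays. Ap2b1, a large subunit of the clathrin adaptor AP2, had the smallest unadjusted p of the 3 lists. Its probe GE1241695 had 8.67, 9.33 and 9.26 in rotenone rats 16, 13 and 9, against 9.62, 9.47 and 9.72 in solvent rats 11, 7 and 1. The groups did not overlap, and the difference was -0.52 ± 0.20 (SE; unadjusted p 0.0294 and adjusted p 0.895 in limma). It was -0.30 without rotenone rat 16, and the second probe, GE21839, differed by 0.03. Dnm1, the dynamin of synaptic endocytosis, was above background on no array.

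**Figure D3:**
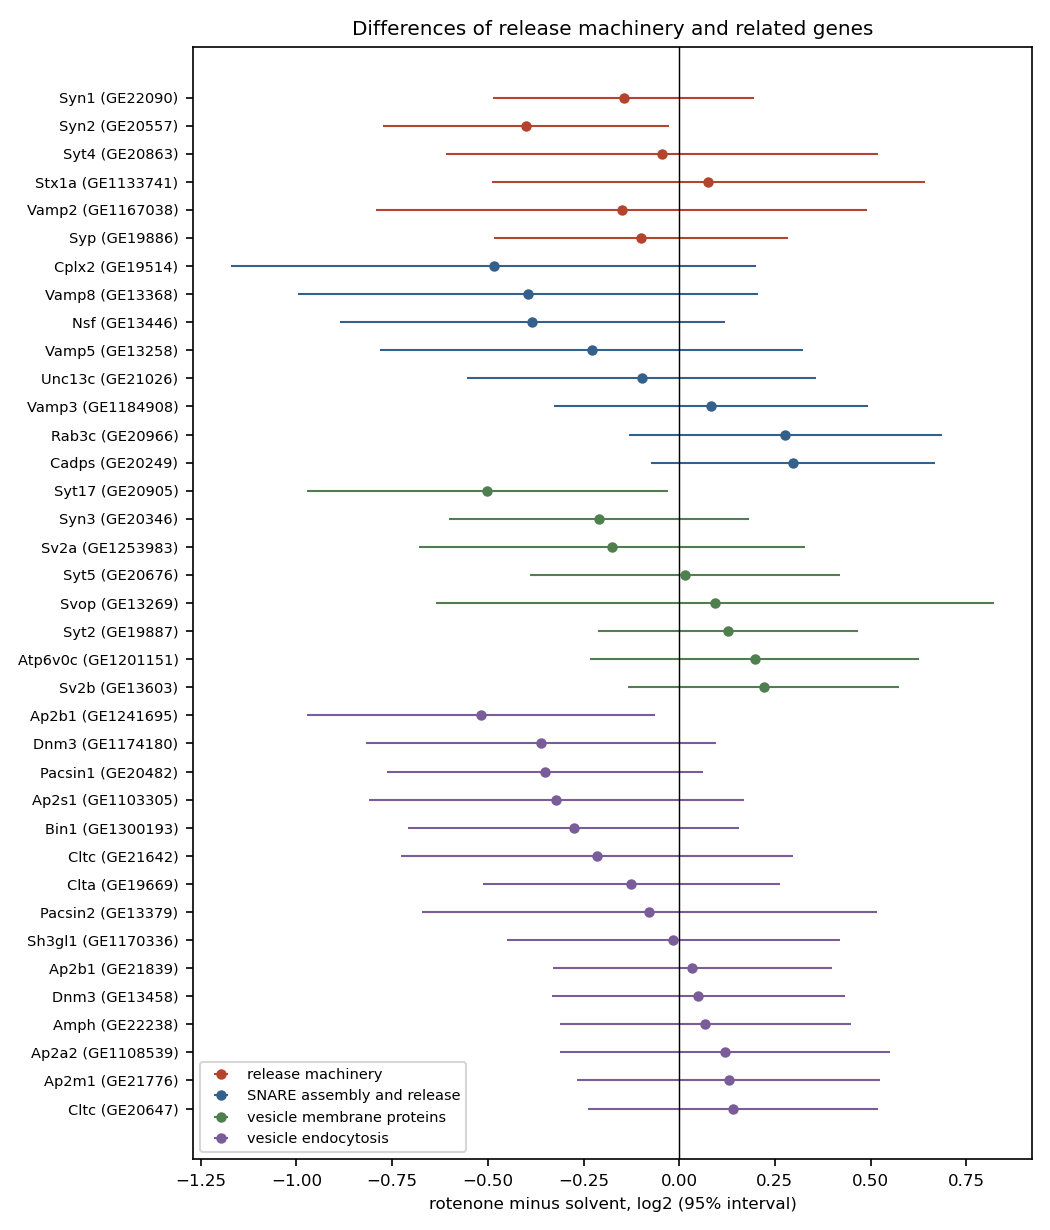
Difference between rotenone and solvent (horizontal axis, log2) with its 95% interval for the 6 tested member probes, above, and 31 of the 32 tested probes of the 3 related lists. The interval excludes 0 for Syn2, Syt17 and Ap2b1 probe GE1241695, all with rotenone lower and none past the adjusted test.

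General neuron markers were lower in mean with rotenone, as Syn2 was. Of 15 listed, 8 had a named probe, and all 10 tested probes of 7 genes were lower in mean with rotenone, with a median of -0.46 and none past the test. The summed intensity of these probes lay between 4925 and 8988 in the rotenone rats, against 9295 to 11355 in the solvent rats, and was lowest in rotenone rat 16. The 2 probes of Gap43, a growth cone protein, made up 55.7% to 63.7% of these sums, and the rest summed to between 1834 and 3481 in the rotenone rats, against 3738 to 4137 in the solvent rats. By probe the groups did not overlap for 2 of the 10, both with rotenone lower, against 4.89% of all tested probes. An unadjusted p below 0.05 in limma with rotenone lower was found for 5 of the 10, against 2.95% of all tested probes. These 5 are both probes of Gap43, both of Elavl3 and that of Ina, so they are not 5 separate genes. The list was chosen with earlier results of these data known. Gap43 differed by -0.97 and -0.50, Ina by -0.78, Stmn2 by -0.64 and -0.36 and Elavl3 by -0.50 and -0.43. The differences were smaller for Nefm, Nefl and Uchl1, at -0.12, -0.20 and -0.17. Without rotenone rat 16 8 were lower and 2 higher, with a median of -0.31. Of the neuron markers, Thy1 was not above background on any array. Their part in the Syn2 difference was not tested, and in a tissue sample fewer neurons and less RNA per neuron cannot be told apart.

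Dopamine neuron markers (9 tested probes) summed to between 20798 and 29588 in the rotenone rats, against 21190 to 29042 in the solvent rats. Each sum weighs bright probes most, here Ddc, Th and Slc6a3. By probe 4 were higher, Drd2 by 0.23, Th by 0.12, Ddc by 0.07 and Ret by 0.02. Lower were 5, at -0.79 for Nr4a2, -0.54 for Slc18a2, -0.29 for Foxa2, -0.20 for Slc6a3 and -0.17 for Pitx3. Only Nr4a2 had an unadjusted p below 0.05 (0.0343, adjusted p 0.895 in limma), and only for Slc6a3 did the groups not overlap. Kcnj6 was not above background on any array. The median difference of the 9 was -0.17, the value of Pitx3, which was above background in no rotenone rat and in 3 solvent rats. Over the 6 probes above background on all 6 arrays it was 0.04. Without rotenone rat 16 7 were lower and 2 higher, with a median of -0.16. Among other cells the astrocyte markers summed to between 13156 and 15740 with rotenone, against 12142 to 13562 with solvent (8 probes, median difference 0.02, and 0.20 with 8 of 8 higher without rotenone rat 16, with 2 of 9 genes never above background, Aqp4 and Slc1a2). Oligodendrocyte markers summed to between 5076 and 6512 with rotenone, against 5563 to 8210 with solvent (11 probes, median -0.37, and -0.26 over the 10 above background on all 6 arrays). Of these 11 probes 8 were lower and 3 higher. An unadjusted p below 0.05 in limma with rotenone lower was found for 3 (Mal and Mobp probes GE21457 and GE19922), against 2.95% of all tested probes. A further Mobp probe, GE1302921, differed by 0.25. With rotenone rat 16 left out, 8 were lower and 3 higher, with a median of -0.27. Microglia (4 probes, median -0.11) summed to between 1786 and 2113 with rotenone, against 1893 to 2190 with solvent, and endothelial and pericyte markers (3 probes, median -0.13, and 0.11 without rotenone rat 16, with 1 probe above background on all 6 arrays) to between 313 and 402 with rotenone, against 340 to 372 with solvent. Cx3cr1 and Kdr were never above background. None of these lists held a probe that passed the test, and their part in the member differences was not tested.

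The pattern of the members as a set was compared with that of every other named and tested gene, as the root mean square distance over the 6 rats between centred log2 values. The mean member profile ran from -0.08 in rotenone rat 13 to 0.17 in solvent rat 11. It is a mean in which opposite deviations cancel, such as those of Stx1a and Vamp2 in rotenone rat 16, so genes that vary little lie close to it and no shared member pattern can be read from it. Of 2257 genes, those closest to it were Ctse, Acta1, Slpi, Flt4 and Asl, at distances of 0.0356 to 0.0474, where the median gene lay at 0.229.

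**Figure D4:**
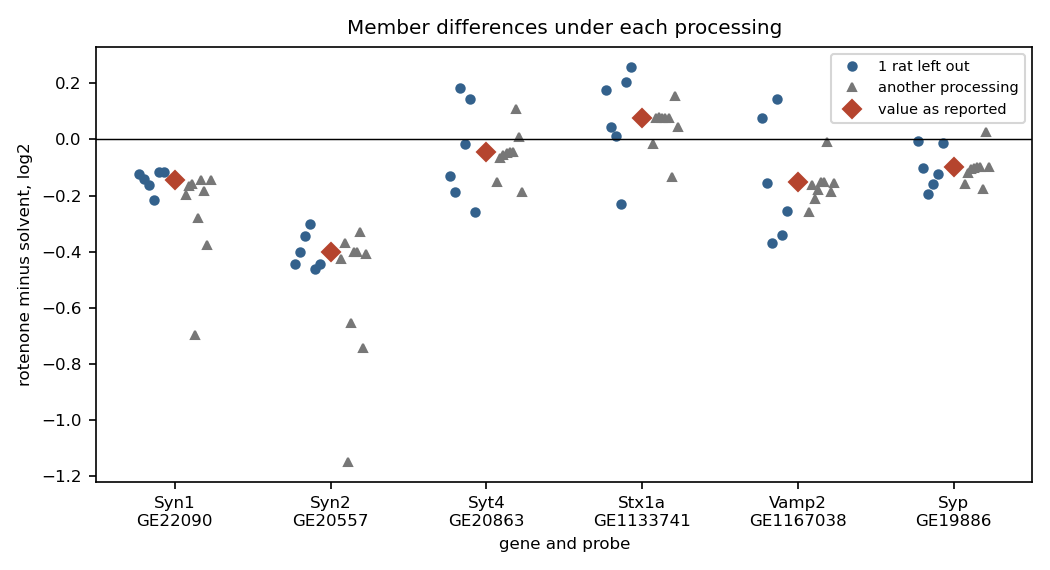
Difference between rotenone and solvent (vertical axis, log2) of the 6 tested member probes as reported (diamonds), with 1 rat left out (circles) and under another processing (triangles). Syn2 lies below 0 in every setting in which it was fitted, between -1.15 and -0.30. Syn1 does too, but it passed the filter through the solvent group, so its sign is not independent of the filter. Syt4, Stx1a, Vamp2 and Syp lie on both sides of 0.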

How the data were processed

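Laser-captured substantia nigra pars compacta of 6 rats was read on 1 CodeLink one-colour array each. The deposited scanner files hold spot and background intensity for 34345 spots, not normalized, per the file headers. The deposited value table holds linear normalized intensity with column medians near 1 (0.994 to 1.00), made by the authors. It has 1 colour and so no direction. Its column for solvent rat 7 matched the scanner file by spot for 0.898% of values and by row order for 86.6%, so the scanner file's own order was used.

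Mean spot and median background intensity were corrected by normexp (offset 50), controls were then dropped, and quantile normalization was applied on the log2 scale. Probes above background on at least 3 of 6 arrays were tested with limma 3.58.1 in R 4.3.3 (lmFit and eBayes, rotenone minus solvent), with Benjamini-Hochberg adjustment. Scanner marks for irregular spots were ignored. The probes of Syt4, Stx1a, Vamp2 and Syp carried such a mark on all 6 arrays, that of Syn2 on 2 and Syn1 probe GE22090 on 0. Names came from RefSeq (GRCr8), which gave 4675 probes of 4013 genes a symbol. The scripts were tested on simulated data. The number of arrays limits precision. Each p-value weighs a difference against the spread between these rats, which limma moderates over all tested probes. Spread between rats and spread between arrays cannot be separated, since each rat has its own array.

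The members and gene lists were chosen with earlier results of these data known. All member probes are named. Of the related lists, tested probes with an unadjusted p below 0.05 or without overlap are named (up to 12), and always a few genes central to release, among them Nsf, Cplx1, Cplx2, Rab3a, Dnm1 and Syt11, of which Cplx1 and Rab3a had no named probe. Some genes of the lists are counted but not reported by name here. Atp6v0c and Sv2a were added after their values were seen.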

Additional observations from a re-analysis of the deposited data

How the results depend on the processing

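No member probe passed the adjusted test under any alternative, and the median over tested members, Syn1 included, was -0.12 and lay between -0.19 and -0.06 with 1 rat left out and between -0.16 and -0.09 otherwise. Over all probes 0 were called except with irregular spots left out (2 of 4283 tested, where Syn1 probe GE22090 alone of the members could be fitted, at -0.20) and without solvent rat 1 (3), so that leaving out 1 rat gave 0 to 3. Unadjusted p below 0.05 was found with rotenone higher for 332 and lower for 493 probes, for 152 and 785 under median scaling and for 290 and 524 under cyclic loess. Without a filter on dim probes 1582 of 33849 had such a p. Of 90 member differences recomputed, 10 changed sign and 80 did not. The 80 include the fits without a filter and those limited to probes above background on every array. Both change only which probes are tested and leave each difference as it was, so no sign could change there. Stx1a was -0.015 under median scaling and -0.13 with array weights. Syt4 was 0.11 with array weights and 0.00914 in the value table, where Syp was 0.026. With 1 rat left out Stx1a ranged from -0.23 to 0.26, Vamp2 from -0.37 to 0.14 and Syt4 from -0.26 to 0.18. The causes were not tested. The file of solvent rat 7 has another header date than the other 5, and with this as a block Syn2 was -0.41 (unadjusted p 0.0779 in limma). That block holds solvent rat 7 alone, so this setting is nearly the same as leaving that rat out, where Syn2 was -0.40. No paired analysis was possible because the rat numbers are not shared between the groups. Dim spots limit Syn1, Syn2, Snap25 and Vamp1, whose signals lay near background.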

Other observations

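Atp6v0c, a membrane subunit of the proton pump that fills vesicles, differed by 0.20 (95% interval -0.23 to 0.63) and was highest in rotenone rat 16, at 12.96. Sv2a, a vesicle glycoprotein and the binding site of levetiracetam, differed by -0.17 at its probe GE1253983 (interval -0.68 to 0.33), while its probe GE21673 was above background on 2 of the 6 arrays and was not tested. Neither tested probe passed the adjusted test in limma.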
